A study of Mus musculus with 6 samples.

Results

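The splicing factor families comprise 78 of the 15594 protein-coding rows of a gene count table from Lewis lung carcinoma (LLC) cells, a transplantable line from a mouse lung tumour. They were picked by a rule on gene symbols: the Srsf, Hnrnp, Sf3a, Sf3b, Snrp, Prpf and U2af genes, Sf1, Tra2a, Tra2b, Ptbp1 to Ptbp3, Rbfox2, Mbnl1 to Mbnl3, Celf1 and Celf2, with the imprinted gene Snrpn left out. Cells in 3 libraries had been transfected with miR-291-3 mimics, and cells in the 3 control libraries with a control mimic. No other treatment, time point or genotype is given in the labels. The series' design text names the overexpressed microRNA as miR-291a-3p. The core snRNP class held 33 genes (Snrp, Sf3a, Sf3b and Prpf), the regulator class 41 (Srsf, Tra2, Hnrnp, Ptbp, Rbfox2, Mbnl and Celf), and 4 genes that recognise the branch point and the 3' splice site (U2af and Sf1) were kept apart.

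Introns are removed from pre-mRNA by the spliceosome, which is assembled from small nuclear ribonucleoproteins (snRNPs), particles of a small nuclear RNA with a ring of Sm proteins and particle-specific proteins. SF1 and the U2AF heterodimer mark the branch point and the 3' splice site before the U2 snRNP, with SF3A and SF3B, takes their place, and PRPF proteins build and remodel the tri-snRNP and the catalytic core. SR proteins and hnRNPs bind exons and introns and often act in opposite directions on the choice of splice sites, while PTBP, RBFOX, MBNL and CELF proteins set tissue-specific splicing programmes. Many SR protein and hnRNP genes adjust their own transcripts by unproductive splicing, which counts per gene do not resolve.

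The microRNA pairs with targets through its seed, bases 2 to 8, which is in capitals in the RefSeq sequence of the natural miRNA (GRCm38.p6, chromosome 7, 3218968 to 3218989, plus strand). The labels do not give the sequence of the mimic itself. Below it stand windows of 3' UTR sequence around matches to that seed, with the match in capitals, for 4 splicing genes with the longest kind of match and for 3 others whose levels are described with them.
miR-291a-3p: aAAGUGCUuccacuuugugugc
Hnrnpu: tagatcagtggtagAGCACTTAttat
Srsf1: tttctaaccacgaaAGCACTTAaatc
Hnrnpul2: tttgcacagaaagcAGCACTTAgagc
Celf2: gagaagccaggagaAGCACTTAaaac
Snrpd3: gtgataaagagtgcaAGCACTTttca
Hnrnpul1: ggaccttagcaaaccGCACTTAttac
Mbnl1: ctggctactgatgttGCACTTAccag

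The libraries held 25376993 to 32963986 counts, and 13779 genes were tested. The LLC markers Krt8, Vim, Cd44 and Itgb1 were present in every library and Krt18 was low. Between the groups Krt8 went from 493 to 552, Itgb1 from 327 to 372, Krt18 from 1.97 to 3.65 and Vim from 2063 to 1877 CPM (mean read counts scaled to library size by edgeR's TMM method), all past the test, and Cd44 did not pass. The summed level of the 4 leukocyte markers read was 1.13 to 1.98 CPM in the controls and 0.795 to 1.08 CPM in the mimic libraries, mostly Csf1r, which did not pass; Ptprc and Adgre1 were at 0 in every library but control replicate 2. Endothelial markers (2 read) summed to 0.312 to 0.598 and 0.481 to 0.808 CPM. The 3 fibroblast markers summed to 28.6 to 32.5 CPM in the controls and 21.1 to 22.8 CPM in the mimic libraries, but went opposite ways: Pdgfra fell by 0.58 on the log2 scale, Lum rose by 1.29 (0.718 to 1.74 CPM), and Dcn was near 0 in both. In bulk RNA fewer cells of a type and less RNA per cell cannot be told apart, and the part of these differences in the results was not tested. Whether replicate libraries stem from independent cultures is not stated, so p-values here reflect library-to-library spread that may be technical only.

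Most splicing factor genes were slightly higher in the mimic libraries. Of 77 tested, 57 rose, 3 fell and 17 did not pass (quasi-likelihood test in edgeR, adjusted p under 0.05 by Benjamini-Hochberg over all genes). Over all 13779 genes tested 24.3% rose and 24.8% fell, 49.1% in all. Risen genes were more common among highly expressed ones: of the 4163 protein-coding genes at 50 CPM or more, a background added after the data had been seen, 48.5% rose and 24.1% fell, while of the 71 splicing genes at that level 56 rose and 3 fell. The changes were small: the median was 0.12 on the log2 scale, a gain of 8.90%, against -0.01 for all genes tested and 0.06 for the protein-coding genes at 50 CPM or more. The range ran from -0.21 for Hnrnpul1 to 0.29 for Srsf9, and 3 of the 77 rose by 20% or more, Srsf9, U2af1 and Prpf38a. Such rises made up larger shares of both backgrounds. They were called for 1048 of the 13779 genes tested and 414 of the 4163 protein-coding genes at 50 CPM or more. Every mimic library lay above every control library for 59 of the 77, against 27.0% of all genes, and below for 3 (Mbnl1, Hnrnpul1 and Srsf4), against 27.9%. Celf2, at 0.321 ± 0.0579 CPM in the controls and 0.267 ± 0.0973 CPM in the mimic libraries (SD, n = 3), was the member too low to be tested.

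**Figure D1:**
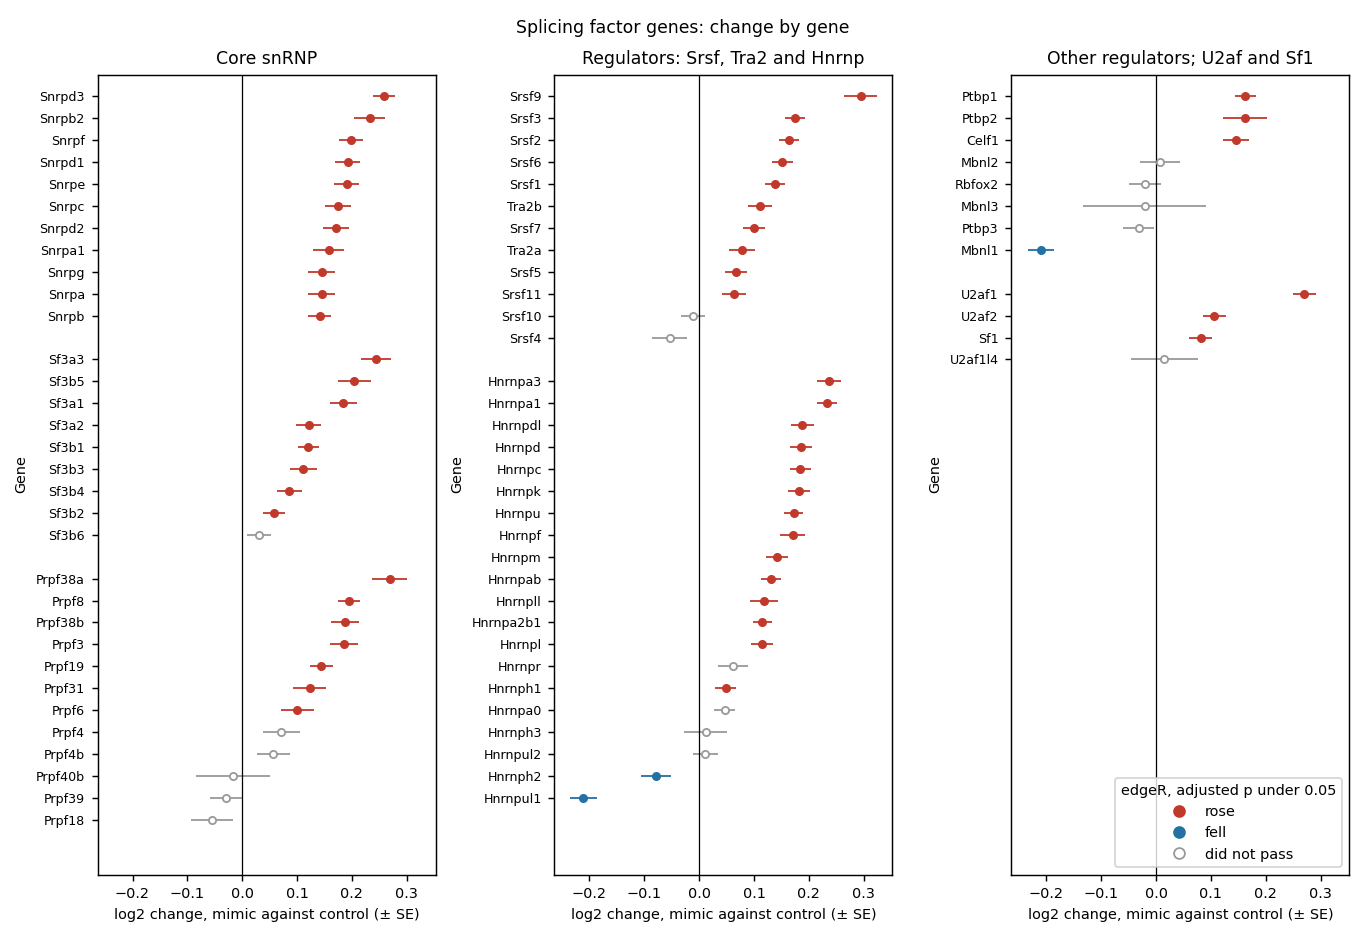
Log2 change with its SE for the tested splicing factor genes shown (x axis), mimic against control, 3 libraries each, in panels by class. Filled red points rose, filled blue points fell and open points did not pass; the 11 Snrp genes all lie between 0.14 and 0.26.

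The scaling of the libraries moves these counts. With total counts in place of TMM 45 of the 77 rose and 9 fell, against 17.0% and 32.3% of all genes, so that 83.3% of the called splicing genes were higher where TMM gave 95.0%. The median over all genes was then -0.06 on the log2 scale and that of the splicing genes 0.07. The whole set took 2.18% to 2.19% of all counts in the control libraries and 2.29% to 2.32% in the mimic libraries. This share is itself a scaling by total counts, not a measure apart from it. In each of the 3 mimic libraries that share was higher than in each control library.

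All 11 Snrp genes, which encode the Sm ring and the proteins particular to the U1 and U2 snRNPs, rose, with a median of 0.17 on the log2 scale and a narrow range of 0.14 to 0.26. The risen share was 24.3% over all genes and 48.5% of protein-coding genes at 50 CPM or more. The 11 Snrp genes also all rose with total counts, against 17.0% of all genes. The 7 Sm ring genes had a median of 0.19. Snrpn, left out by the rule, held 386, 356 and 404 unscaled counts in the control libraries and 309, 284 and 308 in the mimic libraries. Snrpd3 (ENSMUSG00000020180.11, chromosome 10), an Sm protein, was at 247, 242 and 249 CPM in the control libraries and at 296, 293 and 295 CPM in the mimic libraries. The groups were far apart relative to their spread, and the log2 change was 0.26 ± 0.02 (SE, edgeR adjusted p = 6.97e-12). Snrpf, the Sm protein with the highest level per length, was at 321, 309.9 and 324 CPM against 359, 365 and 372 CPM, with a log2 change of 0.20 ± 0.02. Snrpd1 went from 164, 167 and 167 to 189, 187 and 192 CPM, and its fellow ring member Snrpe from 209.7, 207 and 203 to 242, 229.7 and 236 CPM. Neither gene had overlapping groups, and both changed by 0.19 on the log2 scale. Snrpb2, a protein of the U2 snRNP, had 112, 113 and 110.3 CPM in the controls and 125, 135 and 134 CPM in the mimic libraries. Mimic replicate 1 was the lowest of its group there, yet above every control, and the log2 change was 0.23 ± 0.03.

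Of the 9 SF3A and SF3B genes, whose products hold the U2 snRNP on the branch point, 8 rose and none fell, with a median of 0.12. For comparison, 24.3% of all genes rose and 24.8% fell, and 48.5% and 24.1% of protein-coding genes at 50 CPM or more. Sf3a3 had 133, 137 and 139 CPM in the controls and 166, 164 and 154 CPM in the mimic libraries, a log2 change of 0.24 ± 0.03. Mimic replicate 3 was the nearest to the controls. Sf3b5, a small SF3B subunit, rose from 74.0 ± 0.95 to 85.3 ± 1.14 CPM (SD, n = 3), and Sf3a1 from 177 ± 5.67 to 201 ± 2.94 CPM. Sf3b1, the large scaffold of SF3B that is recurrently mutated in cancers, went from 355 ± 2.88 to 386 ± 3.39 CPM (log2 change 0.12 ± 0.02). Sf3b6, which contacts the branch point adenosine, did not pass, at 224 ± 3.64 and 229 ± 2.51 CPM. With total counts 5 of the 9 rose and none fell, against 17.0% and 32.3% of all genes.

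The 13 Prpf genes were less uniform: 8 rose, none fell and 5 did not pass. Over all genes 24.3% rose and 24.8% fell, and 48.5% and 24.1% of protein-coding genes at 50 CPM or more. In the group that belongs to the tri-snRNP (Prpf3, Prpf4, Prpf6, Prpf8 and Prpf31) 4 of 5 rose, with Prpf4 (log2 change 0.07 ± 0.03) not passing. Prpf8, the scaffold of the catalytic centre, had 486, 494 and 485 CPM in the controls against 569.8, 562 and 545 CPM. All mimic libraries lay well above the controls, and the log2 change was 0.19 ± 0.02 (edgeR adjusted p = 1.25e-09). Outside the tri-snRNP 4 of 8 rose, too near the 48.5% to be read as a result. Prpf38a, which takes part in spliceosome activation, had the largest change among the core genes, from 61.0, 60.4 and 60.4 CPM to 74.2, 72.1 and 72.7 CPM, a gain of 20.5%. Its paralogue Prpf38b rose from 116 ± 0.716 to 132 ± 2.75 CPM. Prpf18, Prpf39 and Prpf40b did not pass, at -0.06, -0.03 and -0.02 on the log2 scale. The same holds for Prpf4b at 0.06. With total counts Prpf18 and Prpf39 fell (log2 changes -0.11 and -0.09).

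Among the 4 genes for recognition of the branch point and 3' splice site, U2af1, the small U2AF subunit that reads the terminal AG, changed most, from 247, 242 and 247 to 297, 292 and 299 CPM. Its log2 change of 0.27 ± 0.02 (edgeR adjusted p = 3.13e-12) was larger than that of its partner U2af2, the subunit that binds the polypyrimidine tract, which went from 302 ± 4.79 to 325 ± 5.09 CPM (0.11 ± 0.02). Sf1, the branch point binding protein, rose by 0.08 ± 0.02 on the log2 scale but did not pass with total counts (0.03) or in limma on FPKM (0.05). U2af1l4 was at 17.0 ± 0.0885 and 17.2 ± 0.992 CPM and did not pass.

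**Figure D2:**
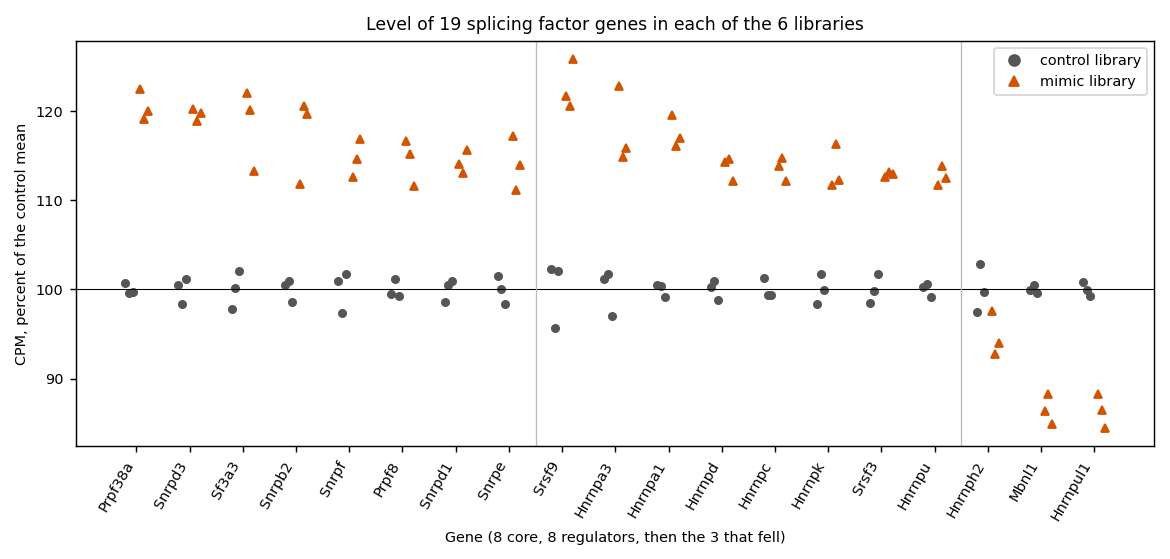
CPM in each library as a percentage of the gene's control mean (y axis) for the 8 core and 8 regulator genes with the smallest adjusted p, followed by the 3 genes that fell. Circles are the 3 control and triangles the 3 mimic libraries; the groups overlap only in Hnrnph2.

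The SR protein genes and the Tra2 genes, whose products mostly bind exonic enhancers, rose in 10 of 12 cases and none fell, with a median of 0.10. The shares were 24.3% risen and 24.8% fallen over all genes, and 48.5% and 24.1% of protein-coding genes at 50 CPM or more. Srsf9 showed the largest rise of all 77, from 93.8, 87.7 and 93.5 CPM to 112, 111 and 115 CPM, with a log2 change of 0.29 ± 0.03 (edgeR adjusted p = 9.71e-10). Srsf3, a small SR protein, was at 559, 567 and 578 CPM in the controls and at 639.6, 643 and 642 CPM in the mimic libraries. The mimic libraries lay closer together than the controls. Srsf2 rose from 493 ± 2.19 to 552 ± 6.43 CPM and Srsf1, the founding SR protein, from 485 ± 0.693 to 534 ± 4.62 CPM. Tra2b rose by 0.11 ± 0.02 on the log2 scale and Tra2a by 0.08 ± 0.02, and Tra2a did not pass with total counts (0.02). Neither passed in limma on FPKM (0.07 for Tra2b and 0.04 for Tra2a). Srsf4 and Srsf10 did not pass, at -0.05 and -0.01 on the log2 scale. With total counts 6 of the 12 rose, and these 2 fell, against 17.0% and 32.3% of all genes.

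Of the 20 hnRNP genes 14 rose, 2 fell and 4 did not pass, with a median of 0.12. Among protein-coding genes at 50 CPM or more 48.5% rose and 24.1% fell, and over all genes 24.3% and 24.8%. Hnrnpa1, a splicing silencer protein, was at 844, 844 and 833 CPM in the controls and 1005, 976 and 983 CPM in the mimic libraries (log2 change 0.23 ± 0.02, edgeR adjusted p = 2.81e-12). Hnrnpa3, a close relative, had 724, 728 and 695 CPM against 879, 822 and 829.6 CPM, a log2 change of 0.24 ± 0.02. The groups stood apart in both, with mimic replicate 1 the highest. Hnrnpu, a large nuclear matrix-associated hnRNP, had 984, 988 and 974 CPM in the controls and 1098, 1118 and 1105 CPM in the mimic libraries. Hnrnpc, which binds uridine tracts and keeps U2AF from cryptic sites, had 507, 498 and 498 CPM against 571, 575 and 562 CPM. Hnrnpk, a KH-domain protein that binds cytidine-rich RNA, had 768, 794 and 780.4 CPM against 872, 907 and 877 CPM. These 3 genes each gained between 12.7% and 13.6%, with no overlap of the groups. Hnrnpd, known also as the mRNA decay factor AUF1, was at 337, 339.6 and 332 CPM and then at 384, 386 and 378 CPM. Its log2 change was 0.19 ± 0.02.

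The 2 hnRNP genes that fell were Hnrnpul1 and Hnrnph2. Hnrnpul1 (ENSMUSG00000040725.14, chromosome 7), a relative of hnRNP U also tied to DNA repair, was at 163, 162 and 161 CPM in the controls and at 143, 140.0 and 137 CPM in the mimic libraries. The groups did not overlap, and the log2 change was -0.21 ± 0.02 (edgeR adjusted p = 1.36e-08). Hnrnph2, on the X chromosome, had 121, 128 and 124 CPM against 122, 116 and 117 CPM. Its groups overlapped, and its log2 change of -0.08 ± 0.03 (edgeR adjusted p = 0.0189) was not called by DESeq2, without a filter on low counts, or without control replicate 2, mimic replicate 2 or mimic replicate 3 (-0.06 to -0.07). Its close relative Hnrnph1 rose by 0.05 ± 0.02, and reads may be split between the pair. Hnrnpa0, Hnrnpr, Hnrnph3 and Hnrnpul2 did not pass (log2 changes 0.05, 0.06, 0.01 and 0.01). Reads from processed pseudogenes could also be assigned to their parents: the 3 pseudogene rows left out of the set, of Hnrnpa1 and Snrpe type, held at most 7 counts in a library.

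Among the tissue-type regulators, Ptbp1, Ptbp2 and Celf1 rose, Mbnl1 fell, and Ptbp3, Rbfox2, Mbnl2 and Mbnl3 did not pass. That is 3 risen and 1 fallen of 8 tested, beside 24.3% and 24.8% of all genes, too near for so few genes to be read as a result. The median was -0.01 on the log2 scale. Mbnl1 (ENSMUSG00000027763.14, chromosome 3), the main muscleblind protein outside the brain and a driver of differentiated splicing, was at 177, 179 and 177 CPM in the controls and at 153, 157 and 151 CPM in the mimic libraries. The groups did not overlap, and the log2 change was -0.21 ± 0.02 (edgeR adjusted p = 8.38e-09). Mbnl2 stayed within its spread, at 64.8 ± 1.38 and 65.1 ± 3.39 CPM. Ptbp1, the general polypyrimidine tract binding protein, rose from 612 ± 8.59 to 684 ± 11.0 CPM, and its neuronal paralogue Ptbp2 from 41.4 ± 1.99 to 46.4 ± 0.657 CPM. Ptbp2 did not pass in limma on FPKM (0.10 to 0.13). Celf1, which binds GU-rich elements and often opposes MBNL proteins, rose from 158 ± 0.858 to 175 ± 3.81 CPM. Rbfox2 had a log2 change of -0.02 ± 0.03. With total counts Ptbp3 and Rbfox2 fell as well (-0.09 and -0.08).

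Core snRNP genes and regulators both rose for the most part. Taken as a class the core changed slightly more and more uniformly, but not in all its families. Of 33 core genes 27 rose, none fell and 6 did not pass, and of 40 tested regulators 27 rose, 3 fell and 10 did not pass. Over all genes 24.3% rose and 24.8% fell, and of protein-coding genes at 50 CPM or more 48.5% and 24.1%. The median log2 change was 0.14 in the core, with quartiles of 0.10 and 0.19, and 0.11 in the regulators, with quartiles of 0.01 and 0.17. The medians differed by 0.03, a difference that library scaling does not touch. By family, the medians were 0.17 for Snrp, 0.12 for Sf3 and 0.11 for Prpf. The Srsf, Tra2 and Hnrnp genes together had 0.12, and the other regulators -0.01. Quartiles were 0.06 and 0.18 for Prpf and 0.06 and 0.17 for the Srsf, Tra2 and Hnrnp genes. The class difference thus lay mainly with the Snrp genes and the other regulators. Relative to the control means, the core median minus the regulator median was 0.00, -0.01 and 0.00 in the control libraries and 0.03, 0.03 and 0.05 in the mimic libraries, with a pooled SD of 0.0082 between libraries of a group. The 3 mimic libraries lay above the 3 controls in this measure. Counted as reads, the core held 0.395 to 0.400 reads per regulator read in the controls and 0.401 to 0.405 in the mimic libraries. These are descriptions: the members are not replicates, and the difference between the classes was not tested. A narrower core, without the Prpf proteins outside the tri-snRNP, had 23 of 25 risen and a median of 0.16.

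**Figure D3:**
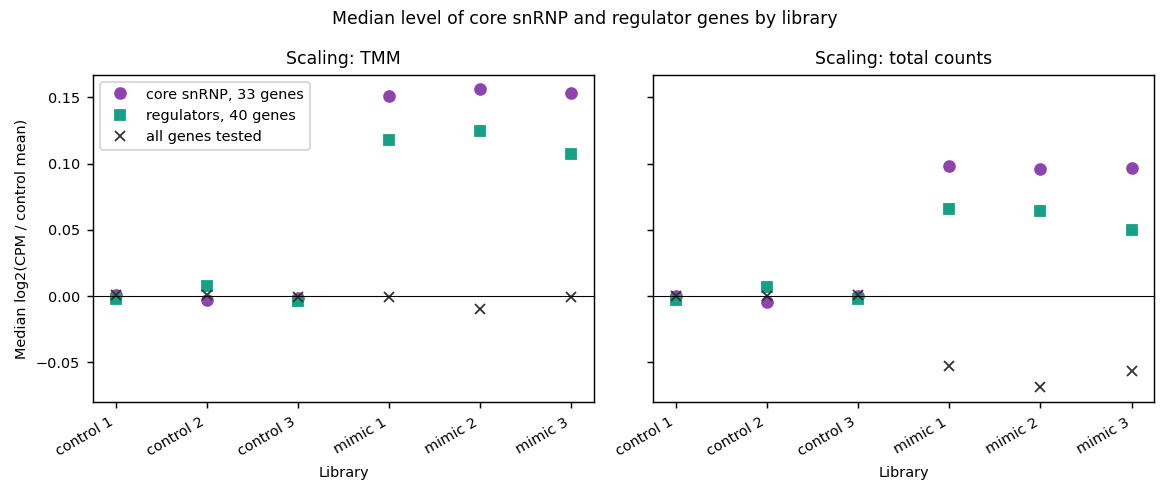
Median of log2(CPM / control mean) over the core snRNP genes, the regulators and all genes tested (y axis) in each library, with TMM scaling (left) and total counts (right). In the mimic libraries the core median lies above the regulator median, and both lie above the median of all genes, under either scaling.

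Splicing genes with a match to the microRNA seed rose more often than they fell, whereas genes with a match at large fell more often. A match was sought in the longest annotated 3' UTR of each gene (GENCODE M21 on GRCm38, whereas the submitters' notes name GRCm39), and all 78 splicing genes had such a UTR. The matches are AGCACTTA (8mer), AGCACTT (7mer-m8), GCACTTA (7mer-A1) and GCACTT (6mer), sought on the transcript strand, with the longest match counted for each gene. Of 17 tested splicing genes with a match of 7 or 8 bases, 9 rose, 2 fell and 6 did not pass, with a median of 0.11. With the UTR of the longest coding sequence instead, 7 rose and 2 fell of 15, with a median of 0.07. Over all 2421 tested protein-coding genes with such a match 18.1% rose and 38.6% fell, with a median of -0.07. The 57 splicing genes with no match had 46 risen and 1 fallen and a median of 0.14, against 30.7% risen and 23.6% fallen over the 7698 protein-coding genes with none. By median the splicing genes were thus higher than all protein-coding genes with a match and than those with none, and no test of this was made. The 4 with a 7mer-A1 went the other way, with a median of -0.07 against -0.05 for that class. The site classes hold genes at all levels, and risen genes were more common among highly expressed ones. Within the set, matched genes had a lower median than unmatched ones, 0.11 against 0.14. The order was the same over all protein-coding genes, at -0.07 against 0.02.

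None of the 4 tested genes with an 8mer fell, and 2 rose, where 49.3% of the 416 protein-coding genes of that class fell and 13.0% rose. Hnrnpu holds its 8mer at 178327029 to 178327036 of chromosome 1, on the minus strand, and rose by 0.17 ± 0.02 on the log2 scale. Srsf1 holds it at 88052952 to 88052959 of chromosome 11 and rose by 0.14 ± 0.02, though the site is absent when the UTR is taken from the transcript that encodes the longest protein. Hnrnpul2 (chromosome 19, 8831820 to 8831827), with 224 ± 1.94 and 226 ± 5.42 CPM, did not pass. The 8mer of Celf2 (chromosome 2, 6546563 to 6546570) lies in a gene too low to be tested. These sites lie in exonic 3' UTR. Which 3' UTR end these cells use was not measured.

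The 2 matched genes that fell both carry the shorter 7mer-A1, Hnrnpul1 at 25721234 to 25721240 of chromosome 7 and Mbnl1 at 60629523 to 60629529 of chromosome 3. Of the 4 splicing genes of that class 2 fell, 1 rose and 1 did not pass, Prpf4 with a log2 change of 0.07. With a 7mer-m8, 6 of 9 genes rose and none fell, among them Snrpd3 (chromosome 10, 75535631 to 75535637), which had the largest rise of the Sm genes, and Sf3b1, which holds 2 copies. Of all 373 protein-coding genes with a 7mer-A1 17.2% rose and 35.7% fell, and of the 1632 with a 7mer-m8 19.7% rose and 36.6% fell. With a 6mer 2 of 3 splicing genes rose and none fell, against 25.1% risen and 30.1% fallen of the 1440 genes of that class.

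**Figure D4:**
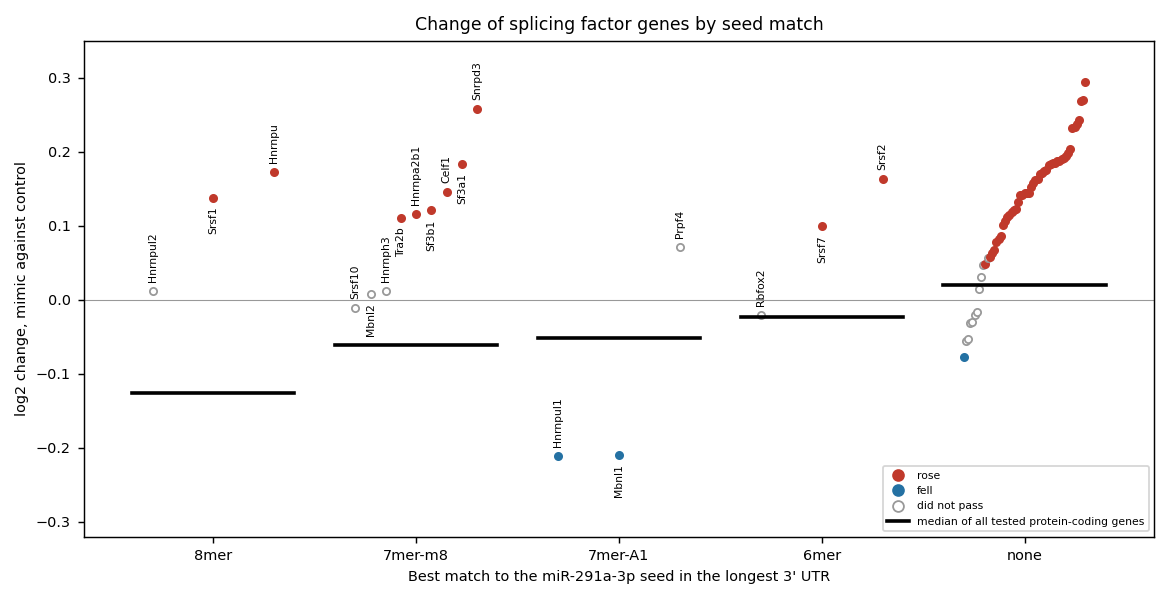
Log2 change of the tested splicing genes shown (y axis) by the longest seed match in their 3' UTR (x axis), coloured by call, with black bars for the median of all tested protein-coding genes of each class. The genes shown with an 8mer lie above the bar of their class at -0.13, and the 2 matched genes that fell are in the 7mer-A1 class.

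Ratios between related genes show shifts that do not depend on library scaling. Of 7 pairs compared, 4 had groups that did not overlap. Each of the 4 was at the smallest p that 3 against 3 libraries allow (exact permutation test, two-sided, p = 0.1). Adjusted over the 7 pairs this was 0.175, so that no pair could pass. Among single genes, the mimic libraries lay wholly above the controls for 27.0% and wholly below for 27.9%. How often ratios of unrelated genes separate was not examined, so the 4 are not read as a trait of related genes. The Mbnl2 to Mbnl1 count ratio was 1.16-fold higher in the mimic libraries, with a log2 ratio of -1.45 ± 0.03 in the controls and -1.24 ± 0.08 in the mimic libraries (SD, n = 3). The Ptbp3 to Ptbp1 log2 ratio went from -2.39 ± 0.04 to -2.58 ± 0.03, a 0.873-fold ratio. The U2af2 to U2af1 log2 ratio went from 0.30, 0.30 and 0.30 in the controls to 0.11, 0.16 and 0.14. For Hnrnpa2b1 to Hnrnpa1 it went from 0.90, 0.91 and 0.91 to 0.79, 0.80 and 0.78. The Ptbp2 to Ptbp1 log2 ratio was -3.88 ± 0.07 and -3.88 ± 0.01, and Tra2a to Tra2b -0.29 ± 0.03 and -0.32 ± 0.02, both with overlapping groups. The Celf2 to Celf1 ratio rests on 4 to 13 Celf2 counts per library and overlapped too.

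**Figure D5:**
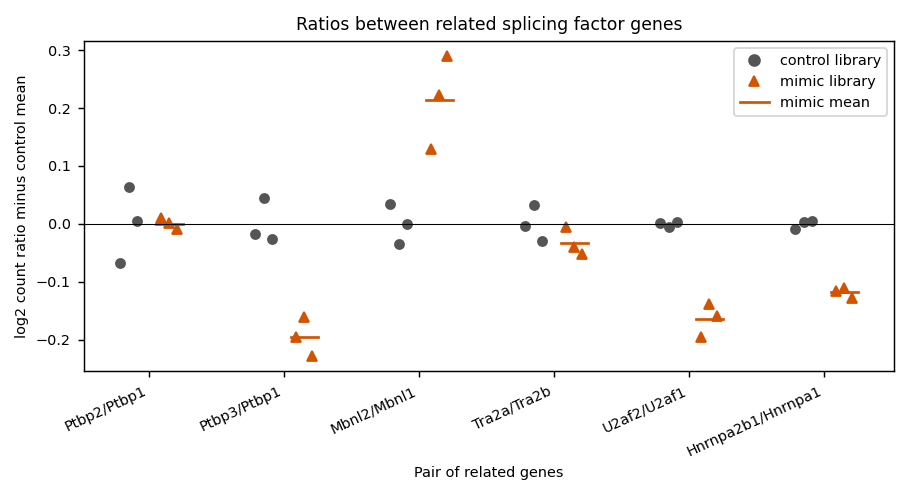
Log2 ratio of the counts of 2 related genes in each library minus the mean of the 3 controls (y axis) for 6 pairs, with circles for control libraries, triangles for mimic libraries and a bar for the mimic mean. Mbnl2/Mbnl1 lies above the controls, Ptbp3/Ptbp1, U2af2/U2af1 and Hnrnpa2b1/Hnrnpa1 lie below, and the other pairs overlap.

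Levels per length differed widely between members. On the authors' FPKM scale, which divides by gene length and depth, Hnrnpab was highest in the controls, at 361 ± 6.67, followed by Snrpf at 328 ± 6.26, Hnrnpa1 at 236 ± 2.52 and Hnrnpa2b1 at 213 ± 2.13 (SD, n = 3). The same order held in the mimic libraries, with Hnrnpab at 386 ± 9.71 FPKM and Snrpf at 367 ± 6.14. At the low end stood Mbnl3 (0.52 FPKM in the controls), Prpf40b (2.56), Ptbp2 (4.01) and Mbnl2 (4.80), and Celf2 was listed at about 0.01. Ptbp1 exceeded Ptbp2 and Ptbp3, and Mbnl1 exceeded Mbnl2, at 8.42 against 4.80 FPKM. The 4 highest genes rose, while of the 5 lowest 1, Ptbp2, rose and none of the others was called.

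Other genes of the splicing machinery, from lists of known components, moved much as the families did. Of 111 tested, 75 rose, 6 fell and 30 did not pass, with a median of 0.12, against 24.3% risen and 24.8% fallen over all genes. Among protein-coding genes at 50 CPM or more the shares were 48.5% and 24.1%, with a median of 0.06. Of 24 further snRNP proteins 19 rose and none fell, led by the U6-binding protein Lsm5 (128 ± 2.18 to 161 ± 0.638 CPM, log2 change 0.33 ± 0.02) and the tri-snRNP factor Usp39 (123 ± 1.92 to 151 ± 2.47 CPM). In the list for assembly of Sm rings onto snRNA 11 of 13 rose. The smallest adjusted p belonged to Strap, of the SMN complex, from 319.9 ± 3.46 to 389.5 ± 5.76 CPM, and Wdr77, partner of the methyltransferase PRMT5 that modifies Sm proteins, from 223 ± 2.71 to 276 ± 7.33 CPM. Tgs1, which makes the trimethylguanosine cap of snRNAs, fell by 0.31 ± 0.04 and was chosen after its value was seen. Of 16 genes of the Prp19 complex and catalytic step 12 rose and none fell, with Bcas2 (log2 change 0.28 ± 0.02) and Cwc15 (0.27 ± 0.03). Of 10 helicases 8 rose, including Ddx46 (0.20 ± 0.02) and Ddx39b (0.14 ± 0.02), and of 9 exon junction complex genes 7 rose, including Rnps1 (0.26 ± 0.02) and Sap18 (0.23 ± 0.03).

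Of 7 tested kinases that phosphorylate SR proteins 1 rose and 2 fell, near the 24.3% and 24.8% of all genes. Dyrk1a rose (58.9 ± 0.676 to 66.7 ± 1.41 CPM), Srpk2 fell (78.9 ± 1.54 to 67.8 ± 2.18 CPM) and so did Clk4, chosen after its value was seen (40.6 ± 1.03 to 35.1 ± 2.62 CPM). Srpk1, Clk1, Clk2 and Clk3 did not pass, and the median was -0.03. Of 32 other regulators 17 rose, with Taf15 (log2 change 0.23 ± 0.03) and Rbm17 (0.18 ± 0.02), and 3 fell. The 17 are too near the 48.5% risen among protein-coding genes at 50 CPM or more to be read as a result. The 3 that fell, Celf5 (-0.51), Rbm4 (-0.42) and Tia1 (-0.16), were chosen after their values were seen.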

How the data were processed

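Polyadenylated RNA was sequenced in 6 libraries, 3 mimic and 3 control, grouped by title; per the labels, the libraries were directional and read as pairs. The authors deposited read counts for 24794 genes and FPKM values for 24494. HISAT2, DESeq2 and the GRCm39 build appear in the submitters' processing notes. How reads were counted, with which strand setting and gene models, is not given, so reads of overlapping antisense genes may be shared.

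The main test was edgeR 4.0.16 under R 4.3.3 (filterByExpr, TMM, glmQLFit, glmQLFTest) on all genes, called at a Benjamini-Hochberg adjusted p under 0.05. SE was taken as |log2 change| over the root of F. CPM use TMM-scaled library sizes. Libraries of a group differed by more than sampling noise (mean chi-square per gene 1.86 to 2.22). The main fit was also run on simulated counts, with far fewer genes changed than were called here. That run therefore does not check the scaling or the calls when so many genes change. Seed matches and permutations used Python 3.11.15 with scipy 1.17.1.

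The members and lists were chosen with earlier results of these data known. Named with values were, in each family, up to 3 risen and 3 fallen genes of smallest adjusted p, genes with an 8mer as far as reported, paralogue pairs, the highest and lowest by FPKM, and 2 per further list. Values in every library are given for the 8 core and 8 regulator genes of smallest adjusted p, and also for U2af1 and the fallen genes, chosen after their values were seen. Other genes are named to account for those that did not pass. Some items are not reported here. Alternatives were DESeq2 size factors, total counts, DESeq2 1.42.0, a test without filtering, a minimum of 2 CPM in 3 libraries, limma 3.58.1 on FPKM (pseudocounts 1 and 0.1, log2), a replicate block, each library left out, an adjusted p under 0.01, a narrow core, and another 3' UTR.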

Additional observations from a re-analysis of the deposited data

How the results depend on the processing

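Under the alternatives run, the risen and fallen counts of all splicing genes, of the core and of the regulators stayed within 1.5 times those reported, except with total counts only, where 9 splicing genes, 2 of the core and 7 regulators fell. In each limma fit 14 of the 60 calls were lost and none added, among them Sf1, Tra2a, Tra2b, Ptbp2 and Hnrnph1. Over all genes, 2111 rose in limma with a pseudocount of 1 FPKM and 2121 with 0.1, against 3349. The core median minus the regulator median was positive in every setting: 0.0427 with the narrow core, and 0.0249 to 0.0423 with single libraries left out, the highest without control replicate 1. The change in the Ptbp2 to Ptbp1 log2 ratio was -0.0015 on FPKM and -0.0334 to 0.0322 with single libraries left out. With the other 3' UTR, 1 gene with an 8mer rose in place of 2. Changes near 0 turned sign in Hnrnpul2 (-0.0453 with total counts, -0.0235 and -0.0243 in limma, -0.000445 to 0.0284 with single libraries left out) and in Mbnl2 (-0.0494 with total counts, -0.0259 and -0.0309 in limma, -0.0119 to 0.0544 with single libraries left out). With the replicate number as a block 59 splicing genes rose and 3 fell, and all 60 calls were kept. Same-numbered libraries correlated by 0.0196 to 0.0748 in their deviations from the group means, each best with its own number. The main test assumed no pairing, and the titles do not say whether same-numbered libraries were paired. The cause of these shifts was not tested.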
